A study of Mus musculus with 6 samples.

Results

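The 36 genes described here encode proteins of the Fanconi anaemia (FA) and homologous recombination (HR) pathways and the checkpoint kinases that act with them, and they were chosen by name from a table of 21853 mouse genes. The libraries came from mouse embryonic fibroblasts of strain C57BL/6J in which xCT, the cystine transporter encoded by Slc7a11, was knocked out, with the age given as 12 days. Cells of 3 libraries were treated with red clover extract (RCE), and those of 3 control libraries received water. The xCT knockout was carried by both groups, so nothing here compares it with a wild type. The dose, the time of exposure and whether the cells were 1 line or several embryos' cells are not given in the sources used here, and the p-values rest on library-to-library spread that may be only technical. RNA was taken with TRIzol and sequenced as stranded mRNA libraries, and each gene's level is given in FPKM, a fragment count divided by transcript length and by the library's mapped fragments.

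When a replication fork meets a crosslink between DNA strands, the FA core complex, an assembly that carries a ubiquitin ligase, attaches ubiquitin to the FANCD2-FANCI pair, which directs nucleases to unhook the crosslink. The break that this leaves is repaired by HR: the ends are resected to single-stranded DNA, BRCA1, BARD1, PALB2 and BRCA2 act on it as mediators, and the intact sister chromatid is then copied. HR works mainly in S and G2 phase, and a number of its genes are transcribed most in those phases through E2F and DREAM control, while others are transcribed at a steadier level. The genes were therefore put in 2 classes from background knowledge, 15 cell-cycle-linked genes and 21 called constitutive. Earlier results of these data were known when the classes were made, so the split is not independent of them. Within bulk RNA, a larger share of cells in S or G2 phase and more transcript per cell cannot be told apart.

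Steps in the low FPKM values gave depths of 45700000, 59000000 and 56150000 fragments in RCE replicates 1, 2 and 3, against 54200000, 49500000 and 49400000 in control replicates 1, 2 and 3. At these depths 10903 to 10924 genes in RCE libraries and 10766 to 10802 in control libraries had at least 1 FPKM. Slc7a11 was at 0.007 to 0.017 FPKM in RCE libraries and 0.013 to 0.037 FPKM in control libraries, close to 0 in both groups. Replicate 1 of both groups stood apart from replicates 2 and 3 on the second principal component, which held 36.5% of the variance, while the first, with 58.1%, separated the groups. All 12 fibroblast markers had a mean of at least 1 FPKM, with a summed level of 4273 to 4359 FPKM in RCE libraries and 4641 to 4761 FPKM in control libraries.

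The mean levels of the 36 genes were higher with RCE. Those of the HR mediator genes Brca1, Brca2 and Palb2, but not of Bard1, were among the clearest. The mean FPKM was higher in RCE than in control for all 36, by a ratio between 1.00 and 2.11, and in 26 of the 36 every RCE library was above every control library. The same held for 23.9% of all genes with a mean above 0. With a mean of 0.3 FPKM or more it held for 25 of 34 members and 31.5% of all genes, and with 1 FPKM or more for 10 of 18 members and 31.2% of all genes. Only 18 of the 36 reached a mean of 1 FPKM, the level set for the test with limma on log2(FPKM + 1), and 9 of these rose at an adjusted p below 0.05 (Benjamini-Hochberg over all genes tested), where 17.6% of all tested genes were called higher and 6.77% lower. None of the 36 was called lower, and 0 was lower at an unadjusted p below 0.05. Since 3 of the 18 passed this filter only through their RCE libraries, and most cell-cycle-linked genes lay below it, a mean of at least 0.3 FPKM was also used. It admitted 34 of the 36, of which 23 rose, against 18.1% of all genes tested. But 4 of the 34, Palb2, Rad54b, Rad54l and Fanci, had a control mean under 0.3 FPKM and passed this filter only through their RCE libraries. With no filter 21 of 36 rose, against 11.3% of all genes. Exo1 and Rad51b stayed under 0.3 FPKM.

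Unless stated otherwise, a change is RCE minus control on log2(FPKM + 1), which understates the change of genes under 1 FPKM, and ratios of mean FPKM are given beside it as a description. Genes averaging at least 1 FPKM take their adjusted p from the fit at that filter, those from 0.3 to 1 FPKM from the fit at 0.3 FPKM, and Exo1 and Rad51b from the fit with no filter. The changes sit on a shift of the whole table: the median change of all genes with at least 1 FPKM was 0.08, and 0.00 after median-of-ratios scaling.

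**Figure D1:**
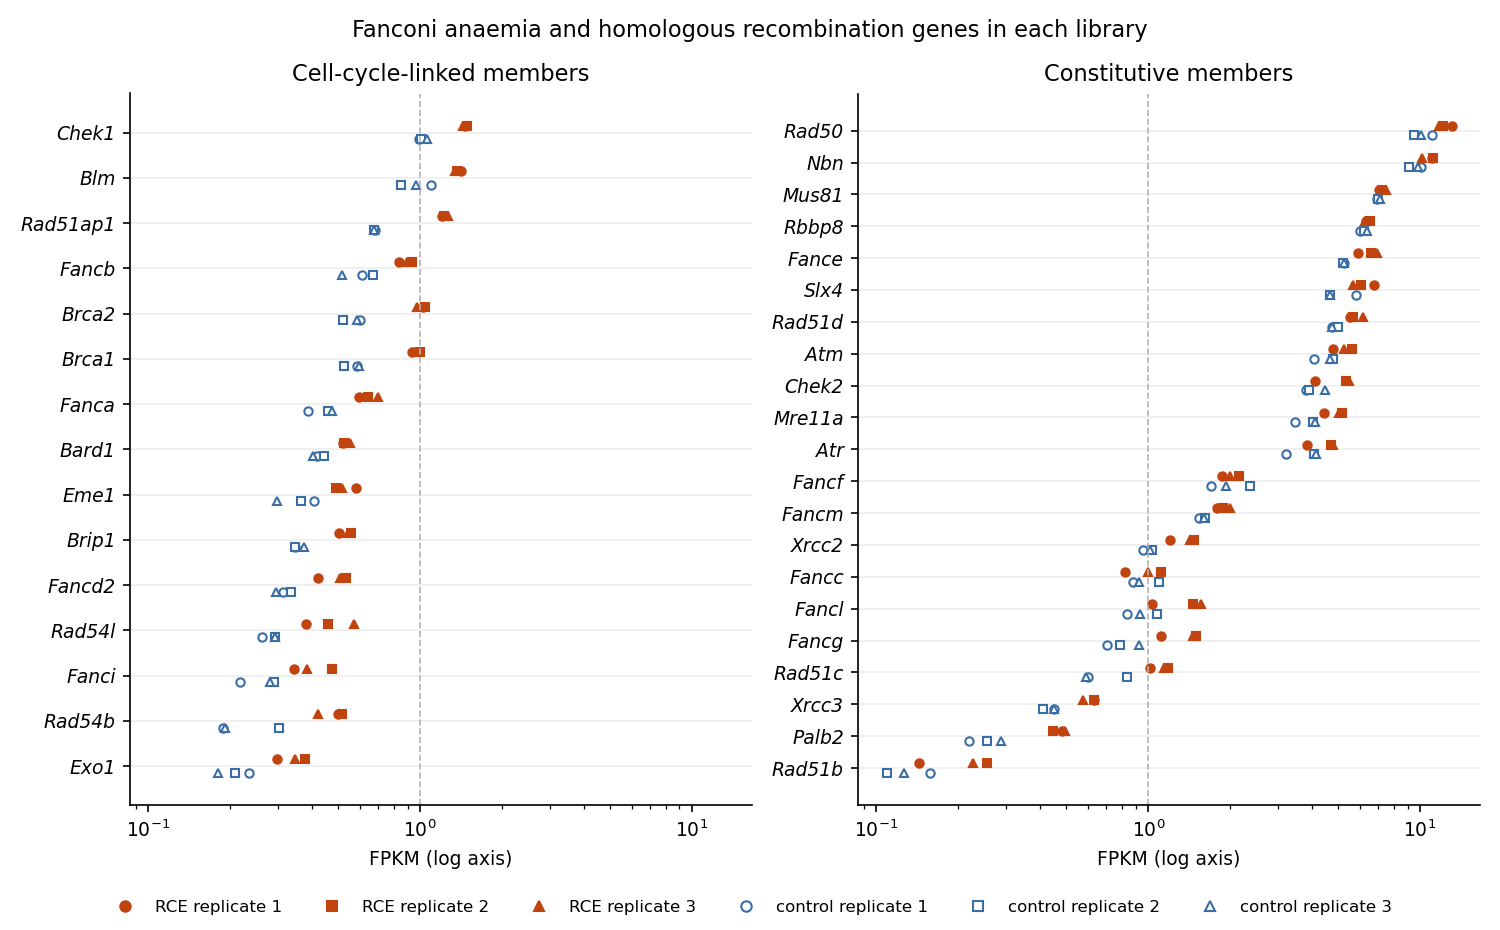
FPKM of each of the 36 genes in every library on a log axis, for the cell-cycle-linked and the constitutive class, with RCE and control replicates marked by colour and shape and the dashed line at 1 FPKM. All 15 cell-cycle-linked genes have every RCE library to the right of every control library, and 13 of them have a mean under 1 FPKM.

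The HR mediator genes were all higher in RCE, with ratios between 1.26 and 1.86. Brca1 (ENSMUSG00000017146, chr11:101488764-101551955, mm10), whose product promotes resection and brings PALB2 to the break, had 0.934, 1.00 and 0.959 FPKM in the 3 RCE libraries, against 0.584, 0.524 and 0.595 FPKM in the 3 control libraries. Brca2 (ENSMUSG00000041147, chr5:150522630-150570329), the mediator that acts on single-stranded DNA after resection, had 1.03, 1.04 and 0.972 FPKM in RCE, against 0.602, 0.520 and 0.587 FPKM in control. Palb2 (ENSMUSG00000044702, chr7:122107262-122132985), the bridge between the 2 proteins, had 0.482, 0.446 and 0.492 FPKM in RCE, against 0.219, 0.256 and 0.287 FPKM in control. In each of the 3 genes the lowest RCE library was well above the highest control library, and the libraries within a group lay close together. Brca1 rose by 0.33 ± 0.036 (SE, adjusted p = 0.00221), Brca2 by 0.36 ± 0.037 (adjusted p = 0.00182) and Palb2 by 0.23 ± 0.035 (adjusted p = 0.00615). As ratios of mean FPKM these are 1.70, 1.78 and 1.86. Palb2 is in the constitutive class and shares exon bases with a processed pseudogene. Its control mean was 0.254 FPKM, so it passed the 0.3 FPKM filter only through its RCE libraries. In the limma fit with no filter its adjusted p was 0.00360. Bard1, the ring-finger partner of BRCA1, was at 0.522 to 0.551 FPKM in RCE and 0.404 to 0.443 FPKM in control, a ratio of 1.26. It rose by 0.11 (adjusted p = 0.0470), but the call ended without any 1 of the 6 libraries (adjusted p = 0.0760 to 0.15) and under median-of-ratios scaling (adjusted p = 0.126), and with a GC correction its change was 0.04 (adjusted p = 0.524).

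Among the HR cofactors and DNA motors, Rad51ap1 had the smallest adjusted p of all 36 genes. Rad51ap1 (ENSMUSG00000030346, chr6:126923050-126939587), whose product stimulates strand invasion, had 1.2, 1.23 and 1.27 FPKM in RCE, against 0.685, 0.678 and 0.679 FPKM in control. The control libraries lay close together, with an SD of 0.00379 FPKM (n = 3), and the RCE libraries were all far above them. These levels rest on 75 to 162 fragments per library, so an SD this small may understate the spread. The change was 0.41 ± 0.032 (SE, adjusted p = 6.70e-04) and the ratio 1.81. Rad54b and Rad54l encode DNA translocases of HR. Rad54b had 0.50, 0.516 and 0.421 FPKM in RCE, against 0.188, 0.302 and 0.191 FPKM in control, the highest ratio of the 36 at 2.11. It rose by 0.27 ± 0.050 (SE, adjusted p = 0.0120), though without RCE replicate 2 the adjusted p was 0.0547 and with a GC correction 0.0543, and its exons overlap those of Fsbp on the same strand, so the reads of these genes cannot be told apart there. Rad54l was at 0.380 to 0.573 FPKM in RCE and 0.261 to 0.293 FPKM in control and rose by 0.20 (adjusted p = 0.0383), a call that ended under median-of-ratios scaling (adjusted p = 0.0575), with a GC correction (0.0746) and without any library other than RCE replicate 1 (adjusted p = 0.0853 to 0.108).

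Rad51b, Rad51c, Rad51d, Xrcc2 and Xrcc3 encode subunits of small complexes that act in HR, and 4 of these 5 genes rose. Rad51c, a member of both known complexes, had 1.01, 1.18 and 1.14 FPKM in RCE, against 0.600, 0.835 and 0.592 FPKM in control. Xrcc3, its partner in the smaller complex, had 0.632, 0.630 and 0.574 FPKM in RCE, against 0.449, 0.409 and 0.451 FPKM in control. No library of one group reached the range of the other in either gene, and control replicate 2 was the highest control library of Rad51c but the lowest of Xrcc3. Rad51c rose by 0.34 (ratio 1.65, adjusted p = 0.0150) and Xrcc3 by 0.17 (ratio 1.40, adjusted p = 0.0162). In the larger complex, Rad51d had 5.54, 5.66 and 6.15 FPKM in RCE, against 4.76, 5.0 and 4.76 FPKM in control, and Xrcc2 had 1.2, 1.47 and 1.43 FPKM in RCE, against 0.960, 1.03 and 1.01 FPKM in control. The groups are apart in both genes, which rose by 0.22 (Rad51d, ratio 1.2, adjusted p = 0.0243) and 0.24 (Xrcc2, ratio 1.36, adjusted p = 0.0228). Rad51b, the fifth, had 0.143, 0.254 and 0.227 FPKM in RCE, against 0.157, 0.109 and 0.126 FPKM in control; the groups overlap at replicate 1, and the change of 0.09 did not pass (adjusted p = 0.149), although it did without RCE replicate 1 (change 0.13, adjusted p = 0.0278). The calls of Rad51d and Xrcc2 ended without any library other than RCE replicate 1 (adjusted p = 0.0565 to 0.0904 for Rad51d and 0.0566 to 0.0894 for Xrcc2), that of Rad51c without RCE replicates 2 or 3 or control replicate 3 (0.0554 to 0.0642) and that of Xrcc3 without RCE replicate 2 or control replicates 2 or 3 (0.0507 to 0.0713). Median-of-ratios scaling ended the call of Rad51d (adjusted p = 0.0757) and a GC correction that of Xrcc3 (0.0559).

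Of the 8 FA core complex genes 5 rose, 1 had an interval above 0 without passing and 2 had a change of 0.01. Fanca (ENSMUSG00000032815, chr8:123268300-123318576), the gene most often mutated in the human disease, had 0.595, 0.641 and 0.699 FPKM in RCE, against 0.387, 0.459 and 0.475 FPKM in control. Fancb, an X-linked gene whose product sits beside the ligase, had 0.836, 0.932 and 0.896 FPKM in RCE, against 0.612, 0.670 and 0.516 FPKM in control. Fancg, which binds FANCA, had 1.11, 1.5 and 1.46 FPKM in RCE, against 0.705, 0.787 and 0.928 FPKM in control. RCE replicate 1 was the lowest RCE library in each of the 3 genes and still above all control libraries. The changes were 0.19 for Fanca (ratio 1.46, adjusted p = 0.0201), 0.24 for Fancb (ratio 1.48, adjusted p = 0.0141) and 0.38 for Fancg (ratio 1.68, adjusted p = 0.0187). Fance, the link to FANCD2, had 5.91, 6.60 and 6.95 FPKM in RCE, against 5.24, 5.21 and 5.24 FPKM in control, and Fancm, the DNA translocase that brings the complex to chromatin, had 1.80, 1.88 and 1.99 FPKM in RCE, against 1.54, 1.62 and 1.61 FPKM in control. The groups did not overlap in either, and they rose by 0.26 (Fance, ratio 1.24, adjusted p = 0.0226) and 0.16 (Fancm, ratio 1.19, adjusted p = 0.0374).

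Fancl, the ligase subunit itself, had 1.03, 1.46 and 1.57 FPKM in RCE, against 0.832, 1.08 and 0.934 FPKM in control. RCE replicate 1 lay under control replicate 2, and the change of 0.27 (95% interval 0.03 to 0.50) had an adjusted p of 0.0949, or 0.00387 with the replicate number as a block. Here and below, fits with this block called 46.6% of all genes higher at 1 FPKM and 44.7% at 0.3 FPKM, and the labels do not say what a number marks. Fancc was at 0.820 to 1.12 FPKM in RCE and 0.879 to 1.10 FPKM in control, and Fancf, the adaptor of the complex, at 1.86 to 2.16 FPKM in RCE and 1.70 to 2.38 FPKM in control. The groups overlapped in both, with changes of 0.01 (95% interval -0.16 to 0.17) for Fancc and 0.01 (-0.20 to 0.22) for Fancf, and the sign of both turned under median-of-ratios scaling. Among the core complex calls, those of Fance and Fancm ended under median-of-ratios scaling (adjusted p = 0.0543 and 0.117). Leaving out RCE replicate 2 or 3 ended all 5 calls, and leaving out control replicate 2 ended all but that of Fancb, with adjusted p between 0.0532 and 0.125 over the libraries that ended a call. The call of Fance also ended without control replicate 3 and that of Fancm without control replicates 1 or 3. A GC correction ended the calls of Fanca (change 0.15, adjusted p = 0.0737), Fancb (0.16, 0.0822), Fance (0.25, 0.132) and Fancm (0.08, 0.160).

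The FANCD2-FANCI pair was among the lowest of the 36 in level. Fancd2 (ENSMUSG00000034023, chr6:113531682-113597017) had 0.422, 0.535 and 0.508 FPKM in RCE, against 0.313, 0.335 and 0.296 FPKM in control. Fanci had 0.343, 0.474 and 0.384 FPKM in RCE, against 0.217, 0.291 and 0.281 FPKM in control. The groups were apart in both genes, with ratios of 1.55 for Fancd2 and 1.52 for Fanci, and RCE replicate 1 was the lowest RCE library of each. Fancd2 rose by 0.18 (adjusted p = 0.0221), a call lost without any library other than RCE replicate 1 (adjusted p = 0.0522 to 0.0858), and Fanci changed by 0.15 with an adjusted p of 0.0635, or 0.0164 with the replicate block and 0.0457 without RCE replicate 1. The helicases Blm, which dissolves joined recombination intermediates, and Brip1, the FANCJ helicase that binds BRCA1, both rose. Blm had 1.42, 1.37 and 1.34 FPKM in RCE, against 1.10, 0.850 and 0.964 FPKM in control, a change of 0.27 (ratio 1.42, adjusted p = 0.0156). Brip1 had 0.502, 0.555 and 0.545 FPKM in RCE, against 0.346, 0.347 and 0.374 FPKM in control, a change of 0.18 (ratio 1.5, adjusted p = 0.0110). The RCE libraries were above the control libraries throughout, and the widest spread was among the Blm controls. The call of Blm ended without RCE replicates 2 or 3 or control replicate 3 (adjusted p = 0.0507 to 0.0637) and that of Brip1 without RCE replicate 2 (adjusted p = 0.0551). With a GC correction the changes were 0.10 for Brip1 (adjusted p = 0.136), 0.11 for Fancd2 (0.0850) and 0.20 for Blm (0.126), and none of them passed.

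Of the 5 end resection genes, Rad50, Mre11a and Exo1 rose and Nbn and Rbbp8 did not pass. Rad50 (ENSMUSG00000020380, chr11:53649519-53707319) and Mre11a (ENSMUSG00000031928, chr9:14784654-14837123) encode the coiled-coil ATPase and the nuclease of the complex that first binds a break. Rad50, the most abundant of the 36 per length, had 13.1, 12.1 and 11.7 FPKM in RCE, against 11.1, 9.51 and 10.04 FPKM in control, and Mre11a had 4.45, 5.16 and 5.04 FPKM in RCE, against 3.46, 4.03 and 4.12 FPKM in control. The groups were apart in both, and replicate 1 was the highest library of its group for Rad50 and the lowest for Mre11a. Rad50 rose by 0.25 (ratio 1.2, adjusted p = 0.0434) and Mre11a by 0.27 (ratio 1.26, adjusted p = 0.0407). Nbn (ENSMUSG00000028224, chr4:15957925-15992589), the subunit that binds ATM, had 11.1, 11.1 and 10.1 FPKM in RCE, against 10.05, 9.09 and 9.80 FPKM in control, with every RCE library above every control library. Its change of 0.15 (95% interval 0.01 to 0.28) did not pass (adjusted p = 0.114, or 0.0178 with the replicate block). Rbbp8, or CtIP, which activates the MRE11 nuclease, was at 6.30 to 6.55 FPKM in RCE and 6.00 to 6.39 FPKM in control, overlapping, with a change of 0.04 (-0.06 to 0.14) that turned sign under median-of-ratios scaling. Exo1, the long-range resection exonuclease, had 0.298, 0.376 and 0.347 FPKM in RCE, against 0.234, 0.209 and 0.180 FPKM in control, a ratio of 1.64 and a change of 0.15 (adjusted p = 0.0182 with no filter). Scaling by median of ratios ended the calls of Rad50 and Mre11a (adjusted p = 0.199 and 0.0841), as did leaving out any library other than control replicate 1 for Rad50 (0.0795 to 0.134) or RCE replicate 1 for Mre11a (0.0741 to 0.141), and Exo1 was lost without replicate 2 or 3 of either group (0.0689 to 0.0755). A GC correction ended the calls of Rad50 (adjusted p = 0.237) and Exo1 (0.0805).

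Of the 3 genes for nucleases that cut joined molecules and their scaffold, Eme1 rose and Mus81 and Slx4 did not pass. Mus81, the catalytic subunit, was at 7.07 to 7.5 FPKM in RCE and 6.92 to 7.10 FPKM in control, overlapping, with a change of 0.05 (95% interval -0.05 to 0.14) that turned sign under median-of-ratios scaling. Its partner Eme1 was at 0.492 to 0.582 FPKM in RCE and 0.298 to 0.407 FPKM in control, with no overlap. Eme1 rose by 0.17 (ratio 1.49, adjusted p = 0.0315), a call that ended without any library other than control replicate 1 (adjusted p = 0.0648 to 0.0948), under median-of-ratios scaling (adjusted p = 0.0730) and with a GC correction (0.0842). Slx4, the scaffold of the nucleases, had 6.76, 6.06 and 5.66 FPKM in RCE, against 5.79, 4.67 and 4.67 FPKM in control, where control replicate 1 reached above RCE replicate 3. Its change of 0.25 (0.02 to 0.47) had an adjusted p of 0.103, or 7.22e-04 with the replicate block and 0.0299 without control replicate 1.

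Among the checkpoint kinases the rise of Chek1 passed and those of Atm, Atr and Chek2 did not. Chek1 (ENSMUSG00000032113, chr9:36708482-36727065), the kinase that ATR activates at stalled forks, had 1.46, 1.48 and 1.44 FPKM in RCE, against 0.991, 1.01 and 1.06 FPKM in control. All its RCE libraries were above its control libraries, with a spread of 0.0205 FPKM in RCE and 0.0369 FPKM in control (SD, n = 3 each). Chek1 rose by 0.29 ± 0.035 (SE, ratio 1.43, adjusted p = 0.00347). Atm (ENSMUSG00000034218, chr9:53439149-53536740), the kinase of double-strand breaks, had 4.78, 5.62 and 5.24 FPKM in RCE, against 4.08, 4.79 and 4.68 FPKM in control. Atr (ENSMUSG00000032409, chr9:95857597-95951781), the kinase of single-stranded DNA, had 3.83, 4.71 and 4.80 FPKM in RCE, against 3.20, 4.05 and 4.14 FPKM in control. Chek2 (ENSMUSG00000029521, chr5:110839979-110874145), the kinase downstream of ATM, had 4.12, 5.34 and 5.46 FPKM in RCE, against 3.80, 3.91 and 4.45 FPKM in control. In these 3 genes RCE replicate 1 was below at least 1 control library, while each RCE library was above the control library of the same number. The changes were 0.17 for Atm (ratio 1.15, adjusted p = 0.140), 0.18 for Atr (ratio 1.17, adjusted p = 0.252) and 0.23 for Chek2 (ratio 1.23, adjusted p = 0.147). With the replicate number as a block they passed, with adjusted p of 0.00279 for Atm, 0.00200 for Atr and 0.00493 for Chek2. In that fit 46.6% of all genes tested were called higher and 15.9% lower. The Chek2 change also passed without RCE replicate 1 (adjusted p = 0.0186).

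The cell-cycle-linked class had the higher ratios. Its 15 genes had a median ratio of 1.52, between 1.26 for Bard1 and 2.11 for Rad54b, against 1.22 for the 21 constitutive genes, between 1.00 for Fancf and 1.86 for Palb2, and 1.07 for all genes averaging at least 0.3 FPKM. All 15 linked genes had every RCE library above every control library, against 11 of the 21 constitutive genes. Of all genes with a mean above 0, 23.9% did. With a mean of 0.3 FPKM or more, 14 of 14 linked and 11 of 20 constitutive genes did, against 31.5% of all genes. At least 1.5 times higher were 9 of the 15 linked genes and 4 of the 21 constitutive ones. Of those averaging 0.3 FPKM or more, 8 of 14 and 3 of 20 reached that ratio, against 2.92% of all such genes. From 0.3 to 1 FPKM, 12.3% of all genes reached it. With no filter 14 of the 15 linked genes rose, and 7 of the 21 constitutive ones, where 11.3% of all genes did. At a mean of 0.3 FPKM, where 18.1% of all genes rose and 20.9% of those from 0.3 to 1 FPKM, 13 of 14 linked genes rose and 10 of 20 constitutive ones. No linked gene had a ratio below the constitutive median, while the constitutive genes Palb2, Fancg, Rad51c and Rad51b lay above the linked median. Between same-numbered libraries the median ratio was 1.46, 1.60 and 1.66 for the linked class at replicates 1, 2 and 3, and 1.17, 1.27 and 1.23 for the constitutive class. With each library left out in turn the medians stayed between 1.48 and 1.63 in the linked class and between 1.2 and 1.25 in the constitutive class, and median-of-ratios scaling gave 1.43 and 1.15. The difference between the classes itself was not tested, and the classes were made with earlier results of these data known.

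**Figure D2:**
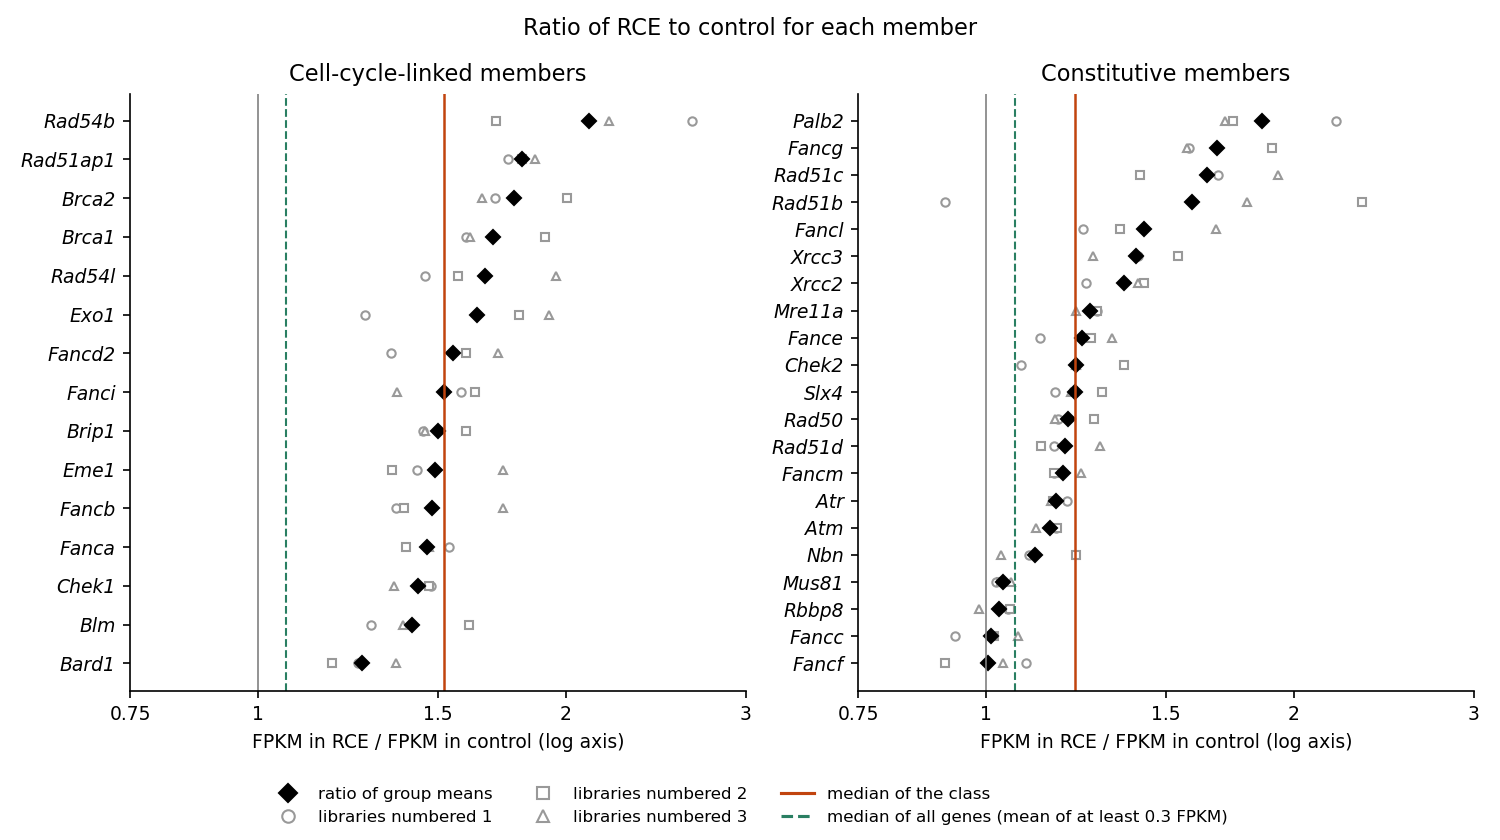
Ratio of RCE to control FPKM for each gene on a log axis, as the ratio of group means and as the ratio of same-numbered libraries, with lines at the class median and at the median of all genes averaging 0.3 FPKM or more. The class medians are 1.52 for the cell-cycle-linked and 1.22 for the constitutive genes, against 1.07 for all genes.

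The classes also differed in level, and the ratio moved with level. The median control level was 0.421 FPKM in the linked class and 3.80 FPKM in the constitutive class. Among the members with a mean under 1 FPKM the median ratio was 1.55 for 13 linked genes and 1.59 for 5 constitutive genes, and among those above it 1.42 for 2 linked genes, Chek1 and Blm, and 1.2 for 16 constitutive genes. Below 1 FPKM the class medians were thus alike. Over all genes the median ratio was 1.13 from 0.3 to 1 FPKM and 1.06 above, and 12.3% of all genes from 0.3 to 1 FPKM were at least 1.5 times higher. The part of level in the difference between the classes was not tested. On log2(FPKM + 1) the medians were 0.22 for both classes at the 0.3 FPKM filter, and with a pseudocount of 0.1 they were 0.49 for the linked and 0.27 for the constitutive class. A wider linked class of 21 genes kept its median ratio at 1.52, against 1.2 for the 15 genes then left as constitutive. It took in Palb2 (ratio 1.86), Fancg (1.68), Rad51c (1.65), Xrcc2 (1.36), Fancm (1.19) and Rbbp8 (1.03). Palb2, Fancg and Rad51c, which lie above the linked median, thus left the constitutive class. The wider class was also made with earlier results known, so it is no independent check.

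**Figure D3:**
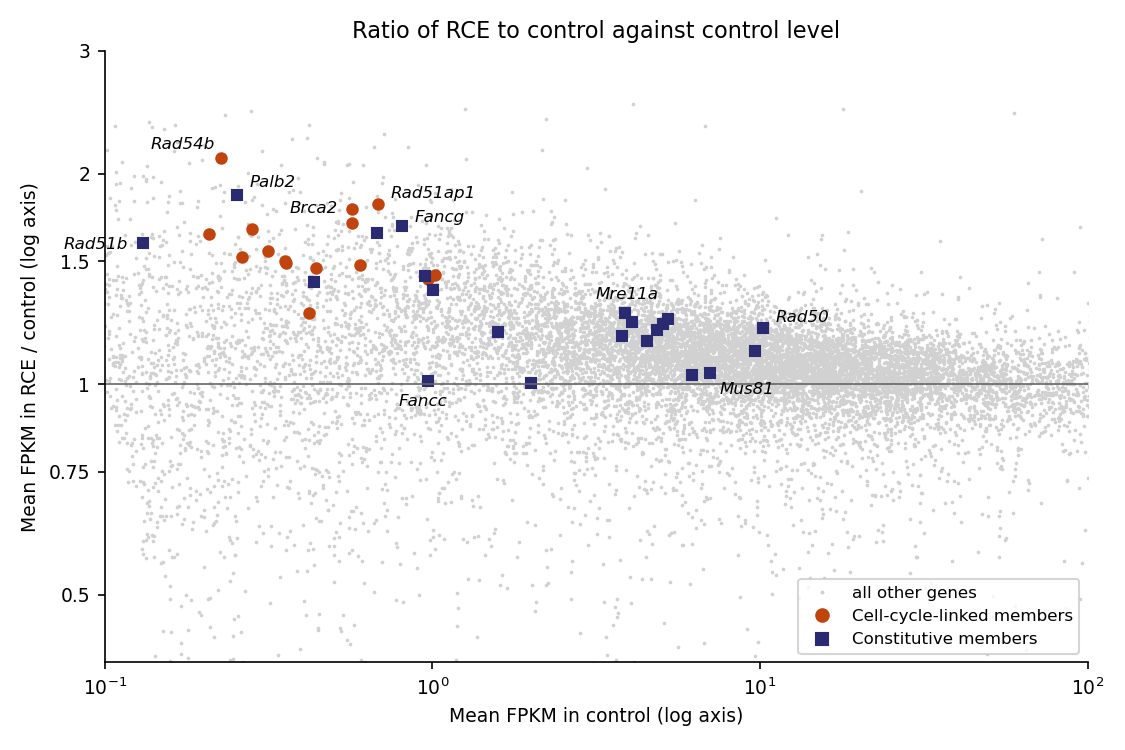
Ratio of mean FPKM in RCE to control against the mean control FPKM, both on log axes, for the cell-cycle-linked members, the constitutive members and all other genes in grey. Palb2, Fancg and Rad51c, constitutive members under 1 FPKM in control, lie among the cell-cycle-linked members, Fancc lies below them all at 1.01, and constitutive members above 3 FPKM lie between 1.03 and 1.26.

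Counts of calls depended on single libraries and on the correction for GC content. Of the 34 genes tested at 0.3 FPKM, 23 rose with all libraries. Without RCE replicate 1, 23 rose (19.0% of all genes), without RCE replicate 2, 5 (6.71%), and without RCE replicate 3, 9 (8.73%). Without control replicate 1, 17 rose (15.2%), without control replicate 2, 10 (8.79%), and without control replicate 3, 10 (8.27%), so that except without RCE replicate 1 the share of all genes fell in the same fits, against 18.1% with all libraries. With a GC correction 10 of the 34 rose, 4 of 14 linked genes (Brca1, Brca2, Rad51ap1 and Chek1) and 6 of 20 constitutive ones, where 10.2% of all genes did. Quantile normalization ended 13 calls, those of Bard1, Rad51d, Rad54l, Xrcc2, Fanca, Fancb, Fance, Fancg, Fancm, Blm, Mre11a, Rad50 and Eme1 (adjusted p = 0.0511 to 0.566). With the replicate number as a block 30 of 34 rose, 14 linked and 16 constitutive, where 44.7% of all genes tested were called higher, and at 1 FPKM 15 of 18, where 46.6% were. Without both replicate 1 libraries 29 of 34 rose, 16 of them constitutive, where 38.4% of all genes did. Brca1, Brca2, Palb2, Rad51ap1 and Chek1 were the 5 genes that passed in every alternative run for them. Exons of 12 of the 36 overlap those of another protein-coding gene, among them Fanca with Zfp276, Fanci with Polg, Eme1 with Lrrc59 and Mre11a with Ankrd49, and since the use of strand in counting is not given, reads of such pairs may not be told apart.

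Promoter windows are shown because the linked class is named for control by E2F at the promoter. RefSeq's windows, from 250 bases before to 50 after the annotated start (GRCm38.p6, the same assembly as mm10), were matched for 28 of the 36 genes, 12 linked and 16 constitutive. The windows were searched on both strands for the E2F letters TTTGGCGC, TTTCCCGC, TTTCGCGC, TTTGCCGC and GGCGGGAA, of which the last pair was added after the sequences had been seen and TTTCCCGC can overlap the reverse complement of GGCGGGAA, for CCAAT, the letters that NF-Y reads, and for TTTGAA or TTCGAA, the CHR element of DREAM targets. The 4 windows below are those of the genes with E2F letters whose call held in every alternative, Brca2 and, through the added GGCGGGAA, Chek1 and Rad51ap1, and, for contrast, of Mus81, a gene with a change near 0 and none of the letters. They run from 5′ to 3′ on the gene's strand, with the matches in capitals: Brca2 at chr5:150522371-150522670 (plus strand), Chek1 at chr9:36726609-36726908, Rad51ap1 at chr6:126939538-126939837 and Mus81 at chr19:5488330-5488629 (minus strand).
Brca2: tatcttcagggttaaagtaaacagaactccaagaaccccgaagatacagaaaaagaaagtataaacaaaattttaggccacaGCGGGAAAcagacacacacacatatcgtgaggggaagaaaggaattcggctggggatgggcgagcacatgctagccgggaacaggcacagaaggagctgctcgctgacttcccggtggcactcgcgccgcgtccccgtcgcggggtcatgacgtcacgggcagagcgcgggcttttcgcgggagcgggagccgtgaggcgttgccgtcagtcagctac
Chek1: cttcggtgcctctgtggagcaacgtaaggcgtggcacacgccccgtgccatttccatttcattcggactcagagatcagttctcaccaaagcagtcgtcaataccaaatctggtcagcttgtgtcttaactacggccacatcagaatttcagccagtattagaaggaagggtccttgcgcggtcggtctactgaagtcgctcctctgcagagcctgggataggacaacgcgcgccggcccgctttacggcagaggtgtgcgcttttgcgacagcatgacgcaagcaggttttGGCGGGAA
Rad51ap1: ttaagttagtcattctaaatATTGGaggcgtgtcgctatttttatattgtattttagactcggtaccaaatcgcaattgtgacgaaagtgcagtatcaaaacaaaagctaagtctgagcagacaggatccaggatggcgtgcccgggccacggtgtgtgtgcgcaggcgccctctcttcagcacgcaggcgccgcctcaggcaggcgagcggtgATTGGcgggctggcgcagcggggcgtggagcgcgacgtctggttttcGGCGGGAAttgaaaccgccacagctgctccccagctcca
Mus81: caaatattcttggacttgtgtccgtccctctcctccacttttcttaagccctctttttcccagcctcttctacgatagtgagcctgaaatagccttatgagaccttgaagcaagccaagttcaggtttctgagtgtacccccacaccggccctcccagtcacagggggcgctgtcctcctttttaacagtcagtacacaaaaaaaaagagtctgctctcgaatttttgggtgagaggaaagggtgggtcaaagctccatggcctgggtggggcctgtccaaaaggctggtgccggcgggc
In Brca2 the capitals are TTTCCCGC read on the opposite strand, 168 bases before the start. In Chek1 they are GGCGGGAA, 42 bases after the start. In Rad51ap1 they are GGCGGGAA, 11 bases after the start, and CCAAT on the opposite strand, 230 and 36 bases before it. The windows were picked by call and by letters, so their display shows no link between call and letters. Brca1 and Palb2, whose calls also held in every alternative, had no E2F letters, and their windows are not shown.

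With the first 3 E2F strings, windows of 2 of 12 linked genes (16.7%, Bard1 and Brca2) and 3 of 16 constitutive genes (18.8%, Chek2, Fancg and Rad51c) held a match, against 4.15% of the 9436 genes that averaged at least 0.3 FPKM and had a window. The strings added later brought in Chek1, Fancb and Rad51ap1 of the linked class and Fancm of the constitutive class, which gave 5 of 12 (41.7%) and 4 of 16 (25%), against 8.23% of all. Since these strings were chosen on the windows of Chek1 and Rad51ap1, the greater share in the linked class rests on that choice and nothing is drawn from it. CCAAT was in a window of 58.3% of linked and 68.8% of constitutive genes, against 43.1% of all genes, and the CHR letters in those of 16.7% and 12.5%, against 16.0% of all genes. Brca1, which passed in every alternative, held CCAAT 86 bases before its start and no E2F letters, and Palb2 held CCAAT 1 base after its start. Among the 9 genes with E2F letters the ratios ran from 1.19 for Fancm to 1.81 for Rad51ap1. A match of letters describes the window and does not show that a factor binds there.

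Most of the listed markers of S phase and mitosis outside the 36 rose in the same libraries. Of 22 replication and S-phase markers 18 rose and 0 fell at the 0.3 FPKM filter, with a median ratio of 1.44, and of 20 mitosis markers 16 rose and 0 fell, with a median ratio of 1.42. Of all genes tested in that fit 18.1% rose and 6.95% fell. Pcna, Tyms, Ccne2 and E2f1 of the first list and Ccnb1, Cdk1, Plk1 and Foxm1 of the second did not pass (adjusted p = 0.0565 to 0.742). The summed level of the S-phase markers was 208 to 220 FPKM in RCE libraries and 166 to 169 FPKM in control libraries, a ratio of 1.28, and that of the mitosis markers 96.0 to 98.2 FPKM in RCE and 70.7 to 75.4 FPKM in control, a ratio of 1.34. The summed level of the 15 linked genes was 11.02, 11.63 and 11.42 FPKM in RCE, against 7.34, 7.29 and 7.20 FPKM in control, a mean of 11.4 ± 0.307 FPKM in RCE and 7.28 ± 0.0748 FPKM in control (SD, n = 3 each) and a ratio of 1.56. The 21 constitutive genes summed to 83.0, 88.3 and 86.8 FPKM in RCE, against 72.5, 73.1 and 74.2 FPKM in control, a ratio of 1.17. No library of either group reached the range of the other in these 4 sums. The part of the share of dividing cells in the levels of the 36 genes was not tested.

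**Figure D4:**
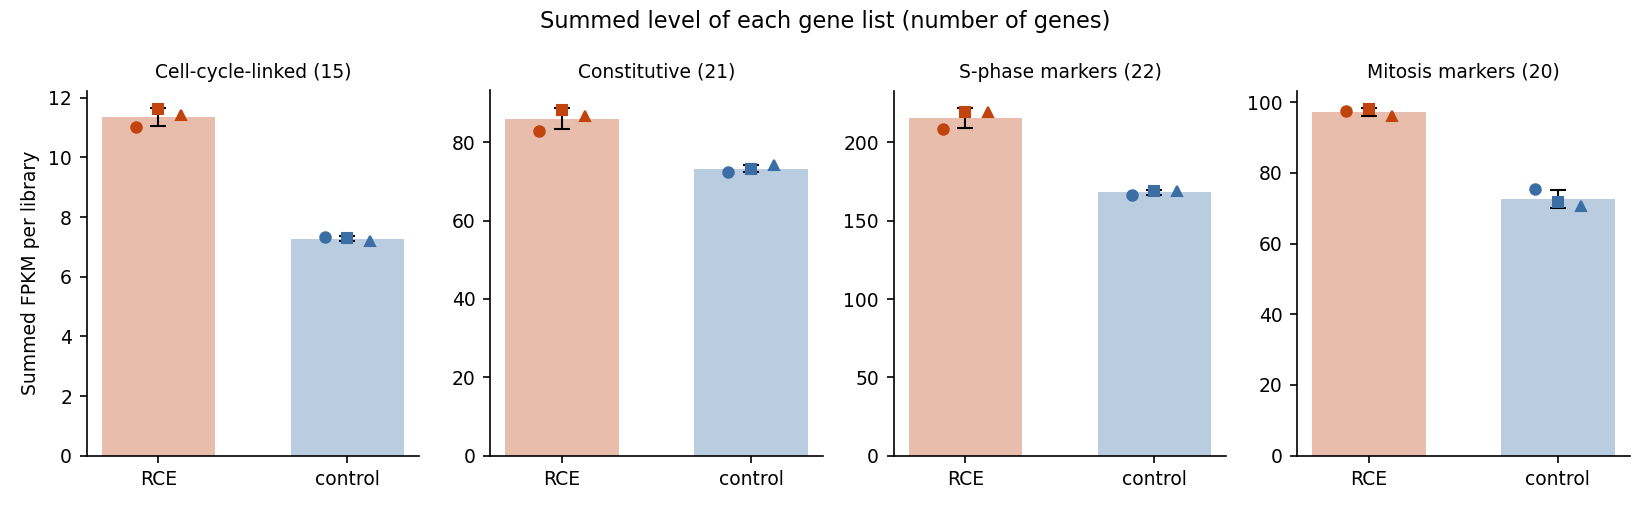
Summed FPKM per library of the cell-cycle-linked members, the constitutive members, the S-phase markers and the mitosis markers, with points for the 3 libraries of each group, bars at the mean and error bars of 1 SD. RCE exceeds control in each list, by a ratio of 1.56, 1.17, 1.28 and 1.34 in that order.

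Other genes of the same pathways rose or did not pass. At 0.3 FPKM, the filter used for the counts of these lists, 18.1% of all genes rose and 6.95% fell. Of 33 other FA and HR genes tested at 0.3 FPKM, 14 rose and 0 fell, with a median change of 0.18. Hells, a chromatin remodeller with a part in break repair, had 3.42, 3.59 and 3.28 FPKM in RCE, against 2.14, 2.16 and 2.10 FPKM in control, and rose by 0.50 (adjusted p = 9.00e-04). Dna2, the nuclease and helicase of long-range resection, had 0.658, 0.670 and 0.627 FPKM in RCE, against 0.295, 0.304 and 0.309 FPKM in control, and rose by 0.34 (adjusted p = 0.00103), the libraries of each group close together and far from those of the other. Of 14 partners of ATR signalling 9 rose and 0 fell, with a median change of 0.28. Timeless and Clspn, fork proteins that help ATR activate CHK1, had the smallest p. Timeless had 1.58, 1.59 and 1.59 FPKM in RCE, against 0.908, 0.964 and 0.912 FPKM in control (change 0.43, adjusted p = 8.05e-04). Clspn had 1.22, 1.27 and 1.23 FPKM in RCE, against 0.826, 0.650 and 0.675 FPKM in control (change 0.39, adjusted p = 0.00321). Both were higher in every RCE library than in any control library. The greatest change of the list, 0.74 (adjusted p = 0.00396), was that of Rpa1, the large subunit of the protein that coats single-stranded DNA, named after its values were seen, with 17.1, 20.2 and 20.6 FPKM in RCE, against 9.86, 11.9 and 11.7 FPKM in control. End joining and 53BP1 genes, which compete with HR for breaks, were no exception: of 14, 7 rose and 0 fell, with a median change of 0.23. Polq, the polymerase of microhomology-mediated joining, averaged 0.646 ± 0.0104 FPKM in RCE and 0.356 ± 0.0343 FPKM in control (SD, n = 3 each) and rose by 0.28 (adjusted p = 0.00297). Rif1, which blocks resection with 53BP1, averaged 4.5 ± 0.0308 FPKM in RCE and 3.55 ± 0.124 FPKM in control (SD, n = 3 each) and rose by 0.27 (adjusted p = 0.00535). Of 18 p53 target genes, which ATM and CHK2 signalling can raise, 7 rose and 1, Btg2, fell, with Cdkn1a at a mean of 369 FPKM in RCE and 347 FPKM in control (adjusted p = 0.260). With the replicate block 26 of the 33 other FA and HR genes rose and 1 fell, 12 of 14 end joining genes rose, and 14 of 18 p53 targets rose and 1 fell. In that fit 44.7% of all genes tested were called higher and 15.5% lower.

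Some markers of other cell types were near 0, while others were above 1 FPKM. Macrophage and leukocyte markers (7 genes) summed to 12.9 to 14.7 FPKM in RCE and 16.7 to 17.7 FPKM in control. Lyz2 averaged 8.31 FPKM in RCE and 11.6 FPKM in control (lower, adjusted p = 0.00468). Cd68 averaged 2.99 FPKM in RCE and 3.32 FPKM in control, and Cd14 1.72 and 1.41 FPKM. Ptprc averaged 0.0383 FPKM in RCE and 0.0660 FPKM in control. Epithelial markers (6 genes) summed to 3.18 to 3.72 FPKM in RCE and 4.23 to 5.22 FPKM in control, mostly Krt19, with Epcam and Cdh1 under 0.1 FPKM in both groups' means. Endothelial markers (6 genes) summed to 2.79 to 3.05 FPKM in RCE and 3.20 to 3.56 FPKM in control, with Pecam1 and Cdh5 under 0.1 FPKM. Neural markers (6 genes) summed to 58.9 to 64.0 FPKM in RCE and 44.7 to 48.9 FPKM in control through Nes and Tubb3, which rose, while Sox2, Elavl3 and Dcx were under 0.1 FPKM. Of the 12 fibroblast markers 0 rose and 3 fell, and with the replicate block 1 rose and 7 fell. Their part in the levels of the 36 genes was not tested.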

How the data were processed

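Gene levels of 6 libraries, 3 RCE and 3 control, were deposited by the authors as 1 table of FPKM values. Reads were aligned to mm10 with STAR 2.5.4 and quantified with Cufflinks and Cuffdiff 2.2.1, per the submitters' processing notes; whether counting used strand is not given in the sources used here. Values of this unit are scaled per library and keep no raw counts, so no count model was used. Depth was taken from the steps of the low values, which came out whole within 0.1 fragment. At such depth the members rest on 12 to 33 fragments per library for Rad51b, 170 to 388 for Brca1 and up to 3685 for Rad50, since a count depends on transcript length as well as level. All 21853 gene IDs matched GENCODE M21, which gave coordinates, and 24 symbols stood on more than 1 row.

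The change of each gene was fitted over all 6 libraries in log2(FPKM + 1) with the trend of variance on intensity, in limma 3.58.1 under R 4.3.3 for genes averaging at least 1 FPKM; the test is two-sided and p-values were adjusted over all genes tested (Benjamini-Hochberg, threshold 0.05). The same fit was run at 0.3 FPKM, used for members between these levels, and with no filter, used for the remaining pair; this use was chosen after the levels were seen. The scripts were tested on simulated data. Alternatives were other pseudocounts and filters, median-of-ratios and quantile scaling, a GC correction, the replicate block, a wider linked class, and each library or both replicate 1 libraries left out. Same-numbered libraries deviated from their group means together (r = 0.92, 0.62 and 0.68 across genes for replicates 1, 2 and 3). The main fit was unpaired, and these libraries were treated as pairs only in the replicate block and in the ratios of same-numbered libraries. The labels do not say what a number marks. RCE replicate 2 went more closely with control replicate 3 (r = 0.72), and RCE replicate 3 with control replicate 2 (r = 0.77). Replicate 1 alone went best with its own number. No 2 libraries of a group agreed within counting noise.

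The members, the classes and the other gene lists were chosen with earlier results of these data known. Values in every library were given for members past the threshold and for Brca1, Brca2, Fancd2, Fanca, Mre11a, Rad50, Nbn, Atm, Atr, Chek1 and Chek2, and for some others, chosen after their values were seen; of the lists of other FA and HR, ATR and end joining genes the 2 with the smallest p were named. Other genes of the p53, S-phase, mitosis and cell type lists were named after their values were seen.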

Additional observations from a re-analysis of the deposited data

How the results depend on the processing

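Brca1, Brca2, Palb2, Rad51ap1 and Chek1 kept their direction and their call in every alternative run for them, and no member was called lower in any. Over all genes at 1 FPKM, 1910 were called higher and 736 lower. Median-of-ratios scaling gave 913 higher, quantile normalization 785 and a GC correction 1116. The replicate block gave 5060 higher and 1730 lower, the GC correction with replicate block 3321 and 2536, and leaving out both replicate 1 libraries 4364 and 1480. Without 1 library these counts ranged from 685 to 2040 higher and from 394 to 734 lower.

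Of the members at 1 FPKM, 9 rose, 2 of them linked and 7 constitutive. With no filter 21 rose (14 linked), and at 0.3 FPKM 23 (13 linked and 10 constitutive), where the change in number comes with more genes tested. Median-of-ratios scaling left 4 (2 constitutive), quantile normalization 1 (1 linked and 0 constitutive) and the GC correction 5 (1 linked and 4 constitutive). Of the 10870 genes tested, 913, 785 and 1116 were called higher in these 3 fits. Under quantile normalization, 1 of 18 members thus stood against 785 of 10870 genes. The replicate block and the omission of both replicate 1 libraries each gave 15 (13 constitutive). The wider linked class had 5 linked and 4 constitutive calls. Leaving out 1 library gave 1 to 10 members, 1 to 2 linked and 0 to 8 constitutive, where 685 to 2040 of all 10870 genes rose. The lowest count, 1 of 18 members, came without RCE replicate 2 (685 genes) and without RCE replicate 3 (899 genes). At 0.3 FPKM, median-of-ratios scaling left 15 (5 constitutive), quantile normalization 11 (7 linked and 4 constitutive) and the GC correction 10 (4 linked and 6 constitutive). With the GC correction 10.2% of all genes rose. The shares of all genes for median-of-ratios scaling and quantile normalization at this filter are not given here, so those counts stand without one. The replicate block and the omission of both replicate 1 libraries each gave 16 constitutive calls, and the wider linked class left 5 constitutive ones. Leaving out 1 library gave 5 to 23 members, 4 to 12 linked and 1 to 11 constitutive, where 6.71% to 19.0% of all genes rose.

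The median change of linked members at 1 FPKM was 0.28. It was 0.47 with a pseudocount of 0.1 and 0.36 with 0.5, 0.20 with no filter, 0.22 at 0.3 FPKM, 0.23 after median-of-ratios scaling, 0.17 after quantile normalization and 0.20 with the GC correction, with or without the replicate block. The constitutive median of 0.23 became 0.15, 0.13 and 0.17 under median-of-ratios scaling, quantile normalization and the GC correction (with or without the block). At 0.3 FPKM the linked median of 0.22 became 0.49 and 0.32 with pseudocounts of 0.1 and 0.5, 0.20 with no filter, 0.19 after median-of-ratios scaling, 0.17 after quantile normalization and 0.15 with the GC correction (with or without the block), and 0.21 to 0.25 without 1 library. The constitutive median of 0.22 became 0.15, 0.13 and 0.17 under the same 3 settings.

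Changes near 0 turned sign. Fancc was at -0.0368 with median-of-ratios scaling, -0.0754 after quantile normalization, -0.0405 with the GC correction with or without the block, and between -0.0441 and 0.0646 without 1 library. Fancf was at -0.0487, -0.10 and -0.0238 under these settings in turn, at -0.0285 without both replicate 1 libraries and between -0.0640 and 0.0971 without 1 library. Rbbp8 was at -0.0389, -0.0550 and -0.0450, and Mus81 at -0.0297 under median-of-ratios scaling and -0.0403 after quantile normalization. The cause of these shifts was not tested. Depth limits the members with the fewest fragments, such as Rad51b, most, and the replicate block changed no call other than those printed beside Fancl, Fanci, Nbn, Slx4, Atm, Atr and Chek2.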
